A study of Mus musculus with 36 samples.

Results

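The interferon response genes described here are 39 genes that cells switch on after interferon has bound its receptors, chosen by gene symbol from the 24421 genes counted in mouse liver. All 39 had counts in every file and passed the filter on low counts in each comparison. They are ordered below by what their proteins do: 5 sensors of viral nucleic acid, 4 oligoadenylate synthetases, 3 transcription factors, ISG15 and its protease, 3 IFIT proteins, 8 other antiviral effectors, 3 genes of the PARP and Dtx3l group, 4 guanylate-binding proteins, 4 immunity-related GTPases and 3 genes that supply peptides to MHC class I.

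Type I and type III interferons are released by cells that sense foreign or misplaced nucleic acid, and interferon gamma comes mainly from T and NK cells. Receptor-bound kinases then activate transcription factors, and a complex that holds STAT2 and IRF9 binds the interferon-stimulated response element (ISRE), whereas interferon gamma acts through the gamma-activated site (GAS). Hepatocytes, Kupffer cells and endothelial cells all carry interferon receptors, so RNA of these genes in whole liver can come from any of them.

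The study asked whether Fc(mML1)B3, a human IgG1 Fc protein with a grafted macrocyclic peptide that binds and activates the mouse Met receptor, changes livers with steatohepatitis. Liver RNA was sequenced from 36 male C57BL/6J mice, 7 weeks old at purchase, and each library was 1 mouse. All of them, controls included, were first fed CDAHFD, a choline-deficient, amino acid-defined high-fat diet, for 12 weeks, and the control protein in both experiments was human Fc without the peptide. In the HFD experiment, 10 mice received 4.3 mg/kg Fc and 10 received 5 mg/kg Fc(mML1)B3 under the skin once a week for 2 weeks on a high-fat diet (HFD). In the standard diet experiment, 9 mice received 4.3 mg/kg Fc and 7 received 5 mg/kg Fc(mML1)B3 on days 1, 4 and 7 of 10 days on a standard diet. Diet therefore goes together with experiment, dosing and time, which cannot be told apart, and the injected Fc is a human protein in every mouse.

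Counts per library totalled 14949035 to 28466853. Hepatocyte markers such as Alb summed to between 83664 and 164012 CPM (counts per 1e6 reads of a library, scaled by TMM factors), so the libraries hold the defining RNA of liver. The index numbers in the file headers place all 10 HFD Fc libraries in 1 series and the 10 HFD Fc(mML1)B3 libraries in 2 others of 4 and 6, so under the HFD the index series and the protein cannot be told apart. Clock genes also moved with the protein under the HFD: Arntl was higher by 3.98 ± 0.29 (log2, SE, adjusted p = 1.08e-08, edgeR) and Dbp lower, at -3.31 ± 0.33 (adjusted p = 5.38e-07). Their part in the results was not tested.

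Per kilobase of exon, the median level over all 36 mice ran from 0.637 CPM for Mx1 to 234 CPM for Bst2, and the median count from 43 reads for Mx1 to 6327.5 for Iigp1. Bst2, the membrane protein tetherin that holds budding virus particles on the cell, and Iigp1, an immunity-related GTPase, stood highest, at 234 and 91.6 CPM per kilobase. They were followed by the immunoproteasome subunits Psmb8 and Psmb9 at 30.1 and 24.1 CPM per kilobase. The lowest were Mx1 and Oas3 at 0.637 and 0.737 CPM per kilobase, so their values rest on few reads, with as few as 17 and 28 in a library. Among the mice of a group, spread was wide relative to the changes reported below: the median within-group range over the 39 genes from lowest to highest mouse was 0.86 (Fc) and 0.89 (Fc(mML1)B3) on the log2 scale under the HFD, and 0.79 and 0.64 under the standard diet.

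The 39 genes lie on 15 chromosomes, and 14 of them lie within 50 kb of another. Psmb9 (mm10, chr17:34182099-34187330, minus strand) and Tap1 (chr17:34187556-34197225, plus strand) start from opposite ends of a stretch of 225 bases, and Psmb8 (chr17:34198195-34201454, plus strand) begins 969 bases after the end of Tap1. Igtp (chr11:58199556-58207592) and Irgm2 (chr11:58214977-58222783) follow each other on the plus strand with 7384 bases between them. Parp9 and Dtx3l overlap on opposite strands and share 334 exonic bases, which strandless counting cannot assign to either gene.

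Promoter windows of RefSeq, from 250 bases before to 50 bases after a start on GRCm38.p6 (mm10), were given for 28 of the 39 genes, in 32 windows. The core of the ISRE was searched as GAAA, any 2 bases and GAAA (on the other strand TTTC, any 2 bases and TTTC), with overlapping matches counted, and the core of the GAS as TTCNNNGAA, which reads the same on both strands. The ISRE core stood in 19 of the 32 windows (59.4%), against 3.44% of all 32851 windows, and the GAS core in 8 (25%) against 8.3%. By gene, 8 of the 12 with a window that were called lower under the HFD held an ISRE core, and so did 10 of the 16 that were not called. The letters are a description and not a measured binding site.

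The stretches below lie outside annotated exons and read 5′ to 3′, with matches to the ISRE core in capitals and the GAS core not marked. They were chosen for genes the results turn on: Isg15 (chr4:156200819-156200968, minus strand) and Ifit1 (chr19:34640739-34640888, plus strand) as the usual marks of the type I response, Igtp (chr11:58199406-58199555, plus strand) and Irgm2 (chr11:58214827-58214976, plus strand) as adjacent genes, Bst2 (chr8:71537473-71537622, minus strand) as the gene with the smallest p under the standard diet, and the whole stretch between the starts of Psmb9 and Tap1 (chr17:34187331-34187555, written on the Tap1 strand). The first 5 are the 150 bases before the start.
Isg15: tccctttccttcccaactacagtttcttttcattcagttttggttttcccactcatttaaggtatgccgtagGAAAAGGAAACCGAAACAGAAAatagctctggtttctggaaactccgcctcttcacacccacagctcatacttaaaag
Ifit1: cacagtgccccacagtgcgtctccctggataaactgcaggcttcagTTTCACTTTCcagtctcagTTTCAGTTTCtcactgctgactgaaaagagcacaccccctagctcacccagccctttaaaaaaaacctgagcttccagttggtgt
Igtp: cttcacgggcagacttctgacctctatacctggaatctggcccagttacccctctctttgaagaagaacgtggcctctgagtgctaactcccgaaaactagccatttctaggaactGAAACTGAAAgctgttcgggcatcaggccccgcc
Irgm2: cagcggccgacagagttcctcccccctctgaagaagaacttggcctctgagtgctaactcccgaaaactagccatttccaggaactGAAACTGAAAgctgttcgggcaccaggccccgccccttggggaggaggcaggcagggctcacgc
Bst2: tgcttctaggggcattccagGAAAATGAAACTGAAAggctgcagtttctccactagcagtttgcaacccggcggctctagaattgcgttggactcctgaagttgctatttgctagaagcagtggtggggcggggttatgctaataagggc
Psmb9-Tap1: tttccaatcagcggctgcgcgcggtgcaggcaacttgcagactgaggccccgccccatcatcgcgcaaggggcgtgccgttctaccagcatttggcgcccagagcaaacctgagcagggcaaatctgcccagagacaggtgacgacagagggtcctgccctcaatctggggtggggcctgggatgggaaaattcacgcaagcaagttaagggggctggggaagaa
Isg15 held 3 overlapping ISRE cores, and Ifit1 and Bst2 held 2 each. The Igtp and Irgm2 stretches held 1 each and shared an unbroken run of 38 bases. Igtp, Irgm2 and Bst2 each also held 1 GAS core, and Isg15 and Ifit1 held 0. The stretch between Psmb9 and Tap1 held neither core in these letters.

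The first comparison asked how Fc(mML1)B3 changed the 39 genes under the HFD. They were lower with Fc(mML1)B3: 16 of 39 were called lower at an adjusted p below 0.05 (edgeR quasi-likelihood test) and 0 higher, against 6.68% of the 13299 genes tested called lower and 8.14% called higher. At an unadjusted p below 0.05, 28 members were lower and 0 higher, where 14.5% and 15.3% of all genes were. DESeq2 called 0 higher and limma-voom 1, Stat2. The median log2 fold change was -0.37 over the 39 genes and -0.01 over all genes tested, and 36 of 39 had a negative sign. Changes were modest, from -0.91 to 0.19 on the log2 scale. In bulk tissue, fewer cells of a type and less RNA per cell cannot be told apart.

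**Figure D1:**
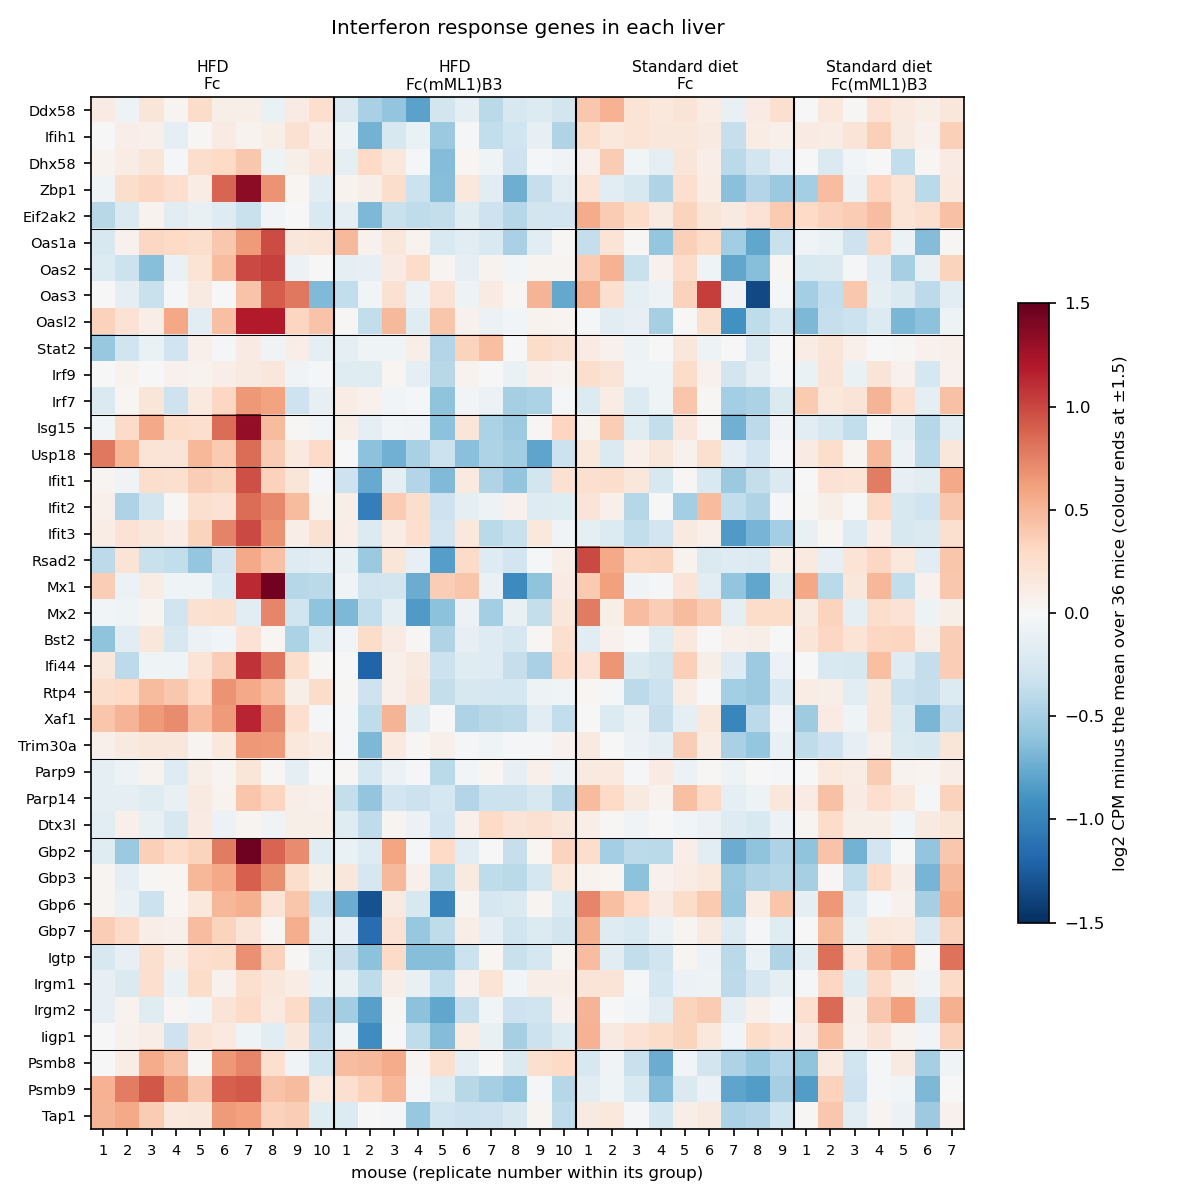
Log2 CPM of the 39 genes (rows, ordered by role) in each of 36 mice (columns, by group) minus the gene's mean over all mice. Fc mice of the HFD experiment are mostly red, most of all mice 7 and 8, and Fc(mML1)B3 mice of that experiment mostly blue.

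The largest change was in Usp18, the protease that removes ISG15 from proteins and dampens signalling at the type I receptor. Under the HFD its level was 14.3 to 23.1 CPM with a median of 16.9 in 10 Fc mice and 7.48 to 13 CPM with a median of 9.1 in 10 Fc(mML1)B3 mice. The groups did not overlap. The log2 fold change was -0.91 ± 0.11 (SE, adjusted p = 4.97e-06, edgeR), and a permutation test of mean log2 CPM gave p = 2e-05, the smallest that 100000 resamples allow. Isg15, the ubiquitin-like protein itself, ran from 13.7 to 35.2 CPM (median 17.1) with Fc and from 9.15 to 17.5 CPM (median 13.6) with Fc(mML1)B3, and 5 of 10 treated mice lay below every Fc mouse. Its log2 fold change was -0.56 ± 0.16 (SE, adjusted p = 0.0223).

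Rtp4, an interferon-induced protein that limits several RNA viruses, was 20.9 to 31.2 CPM (median 25) with Fc and 15.3 to 22 CPM (median 17.6) with Fc(mML1)B3. Of the 10 treated mice, 9 lay below all Fc mice, and the log2 fold change was -0.51 ± 0.08 (SE, adjusted p = 1.84e-04; permutation p = 2e-05). Xaf1, a pro-apoptotic partner of the inhibitor XIAP, was also called lower, at -0.73 ± 0.14 (log2, SE). The other 6 antiviral effectors, Rsad2, Mx1, Mx2, Bst2, Ifi44 and Trim30a, were not called, and their log2 fold changes ran from -0.47 to 0.10.

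Among the sensors, 3 of 5 were called lower. Ddx58, the RNA helicase RIG-I, was 30.7 to 39.6 CPM (median 35.3) with Fc and 18.9 to 29.7 CPM (median 27.2) with Fc(mML1)B3, a log2 fold change of -0.45 ± 0.08 (SE). The groups did not overlap. Ifih1, the helicase MDA5, and Zbp1, a sensor of Z-form nucleic acid, were lower by -0.34 ± 0.08 and -0.58 ± 0.18 (log2, SE), while Dhx58 and the RNA-dependent kinase Eif2ak2 were not called, at -0.21 ± 0.10 and -0.17 ± 0.07. Parp14, a mono-ADP-ribosyltransferase, was the last of the 3 genes with separate groups, at 31.9 to 48.5 CPM (median 38.1) with Fc and 24 to 30.7 CPM (median 29.1) with Fc(mML1)B3. Over all genes tested, groups were separate in this direction for 0.376% and in the other for 0.587%, where no member was.

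Of the genes that supply peptides to class I molecules, Tap1 and Psmb9 were called lower and Psmb8 was not. Tap1, 1 subunit of the transporter that carries peptides into the endoplasmic reticulum, was 23.3 to 40.9 CPM (median 34.2) with Fc and 17.7 to 27.1 CPM (median 21.8) with Fc(mML1)B3, and 7 of 10 treated mice lay below all Fc mice. Its log2 fold change was -0.59 ± 0.10 (SE, adjusted p = 1.92e-04; permutation p = 8e-05). Psmb9, an immunoproteasome subunit read from the same stretch in the other direction, was 22.1 to 38.3 CPM (median 29.9) with Fc and 13.4 to 28.1 CPM (median 18.5) with Fc(mML1)B3, at -0.70 ± 0.14 (log2, SE, adjusted p = 0.00116). In separate fits by index series of the treated mice, the Psmb9 change was -0.35 and not called (adjusted p = 0.137, edgeR) with the 4 mice of the smaller series and -0.98 and called with the other 6, and the difference between these was not tested.

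Psmb8, the immunoproteasome subunit next to Tap1, was chosen for display after its values were seen. It was 30.2 to 61.7 CPM (median 42.3) with Fc and 31.9 to 54.7 CPM (median 44) with Fc(mML1)B3, and the groups overlapped almost fully. The log2 fold change was -0.06, with a 95% interval from -0.31 to 0.20. The log2 ratio of Psmb9 to Psmb8 within a mouse was -0.52 ± 0.17 (SD, n = 10) with Fc and -1.20 ± 0.21 (SD, n = 10) with Fc(mML1)B3. Under the standard diet the same ratio was -0.94 ± 0.18 (SD, n = 9) and -0.94 ± 0.16 (SD, n = 7). The ratio was chosen with these values known and is a description.

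**Figure D2:**
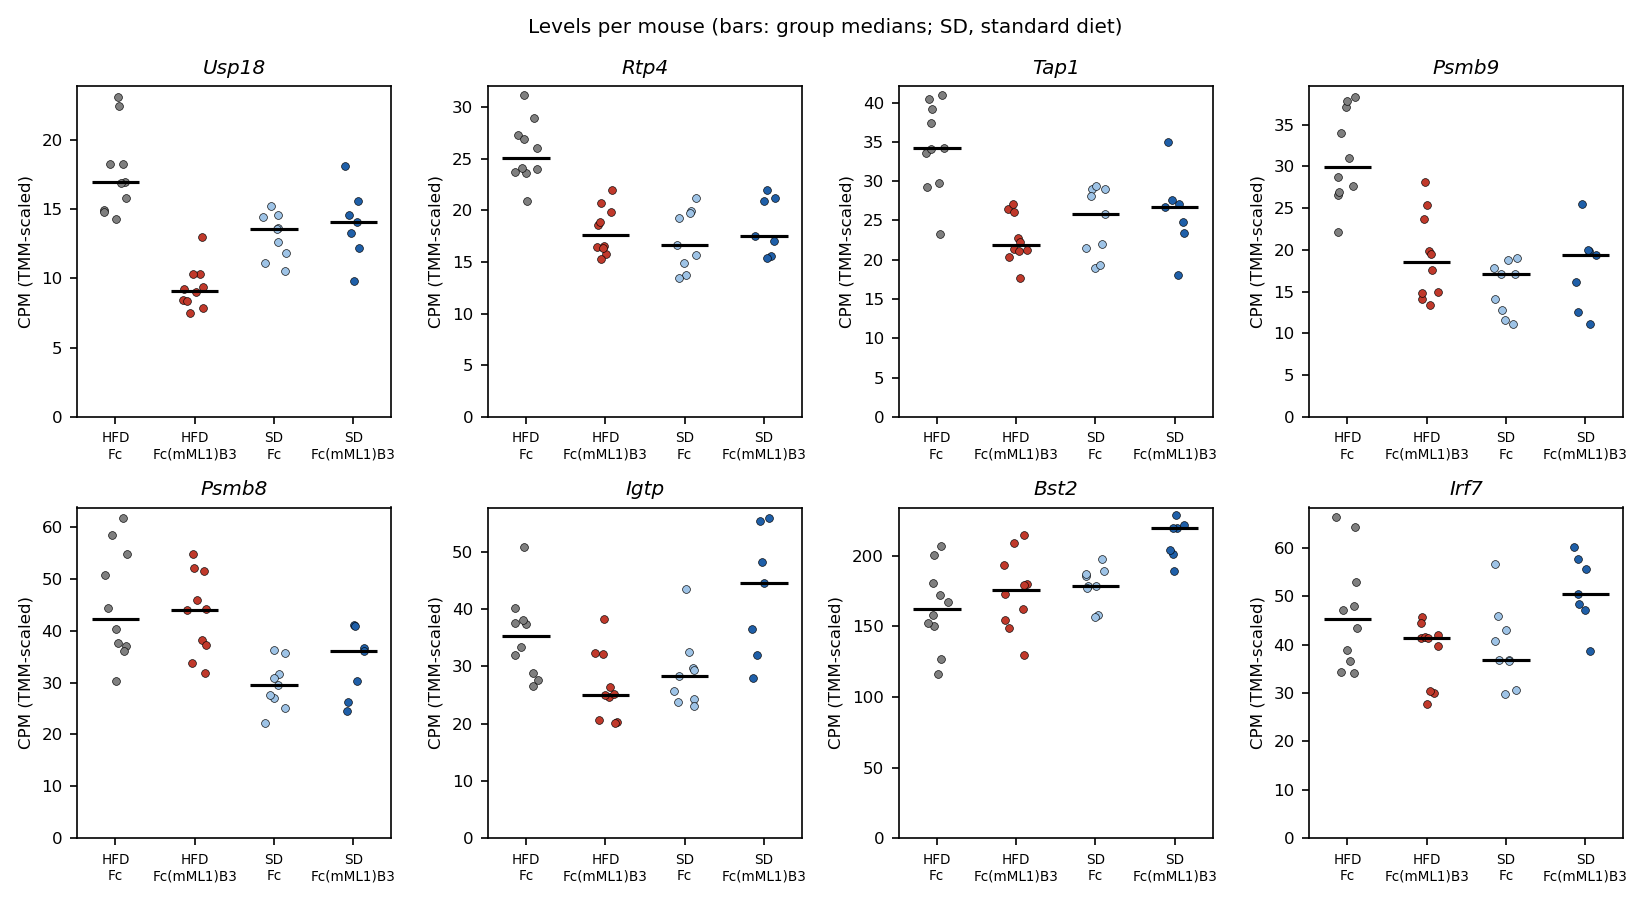
CPM per mouse (points) and group medians (bars) of 8 genes in the 4 groups, on linear axes that start at 0. Under the HFD the Usp18 points of the 2 proteins are separate and those of Psmb8 overlap, and Bst2 and Igtp are higher with Fc(mML1)B3 under the standard diet.

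The remaining called genes were spread over the other roles. Of the IFIT proteins, which bind viral RNA, Ifit1 and Ifit3 were called lower, at -0.59 ± 0.14 and -0.43 ± 0.12 (log2, SE), and Ifit2 was not, at -0.31 ± 0.16. Reads that Ifit3 shares with its near-identical copy Ifit3b were not counted. Of the oligoadenylate synthetases, which activate the antiviral nuclease RNase L, Oasl2 was called, at -0.47 ± 0.15, and Oas1a, Oas2 and Oas3 were not, at -0.37 to -0.17. Of the interferon-inducible GTPases, which act at pathogen vacuoles or guard host membranes, Gbp7, Igtp and Irgm2 were called lower, at -0.48 ± 0.12, -0.41 ± 0.13 and -0.37 ± 0.11. Gbp2, Gbp3, Gbp6, Irgm1 and Iigp1 were not, at -0.45 to -0.10. The calls of Oasl2, Igtp and Irgm2 were lost in 19, 13 and 13 of 31 alternative fits, most often when 1 mouse was left out.

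The transcription factors and the Parp9 and Dtx3l pair did not pass the test under the HFD. Stat2 and Irf9, whose proteins are part of the complex that binds the ISRE, had log2 fold changes of 0.19 ± 0.10 and -0.13 ± 0.06 (SE). Irf7, the factor that drives interferon alpha genes, was at -0.28 ± 0.13 (adjusted p = 0.149). Parp9 and Dtx3l, whose proteins act as a ubiquitin ligase complex, were at -0.07 ± 0.06 and 0.05 ± 0.08.

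**Figure D3:**
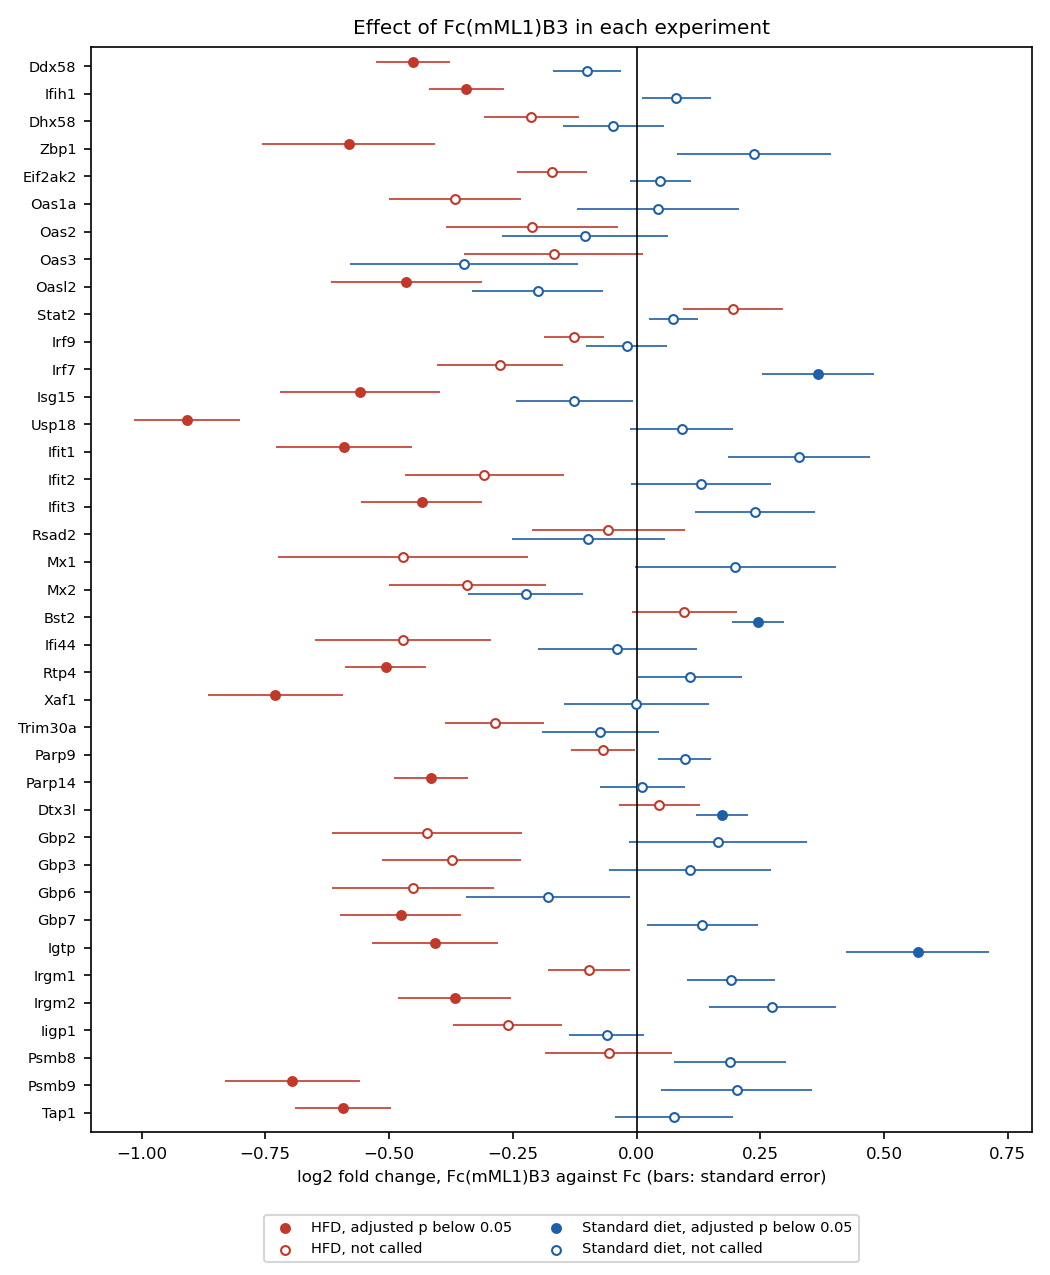
Log2 fold change of Fc(mML1)B3 against Fc (points) with its standard error (bars) for each of the 39 genes, under the HFD in red and under the standard diet in blue, filled where the adjusted p was below 0.05. All 16 filled red points lie left of 0 and all 4 filled blue points right of 0.

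Some immune cell markers also differed in the same comparison. The B and plasma cell list had 4 of 6 genes called lower (Ms4a1, Cd79b, Jchain and Mzb1), and its summed level was 11.5 to 37.8 CPM with Fc and 8.76 to 17.8 CPM with Fc(mML1)B3. The neutrophil list had S100a8 and S100a9 called lower of 3 genes tested, and summed to 5.46 to 64.5 CPM with Fc and 5.43 to 17.4 CPM with Fc(mML1)B3. The Kupffer cell and macrophage list had 4 of 7 lower at an unadjusted p below 0.05 and 0 at an adjusted one (edgeR), with log2 fold changes from -2.06 to 0.57, 5 negative and 2 positive, and a median of -0.28. It summed to 204 to 523 CPM (median 291) with Fc and 196 to 389 CPM (median 317) with Fc(mML1)B3. The T and NK cell list had 3 of 9 tested lower at an unadjusted p below 0.05 and 0 at an adjusted one (edgeR), and summed to 8.35 to 30.1 CPM and 8.74 to 22.8 CPM. None of the markers in the files for these lists was at 0 in every library of a group, and their part in the results was not tested.

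Many of the highest Fc values came from 2 mice. Fc mouse 7 was the highest of its group in 23 of the 39 genes and Fc mouse 8 in 6, while over all genes tested they were highest in 13.4% and 12.5%. Both also had the highest summed neutrophil markers of the group, 64.5 and 61.8 CPM, and the highest summed markers of macrophages (523 and 409 CPM), dendritic cells (65.3 and 78.6 CPM) and T and NK cells (28.7 and 30.1 CPM). Without both mice, which was tried after seeing the data, 10 of the 16 genes were still called lower and Zbp1, Oasl2, Isg15, Ifit3, Igtp and Irgm2 were not. In that fit 841 of 13474 genes tested were called lower. When the Fc(mML1)B3 group was cut to the 4 mice of its smaller index series, 5 members were called lower (Ddx58, Usp18, Ifit1, Parp14 and Tap1), where 292 of 13824 genes tested were. When it was cut to the other 6 mice, 14 members were called lower, 12 of them among the 16, where 712 of 13538 genes tested were. In both of these fits by index series 36 of 39 signs were negative. Without Fc mice 7 and 8, 33 signs were negative and 6 positive.

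**Figure D4:**
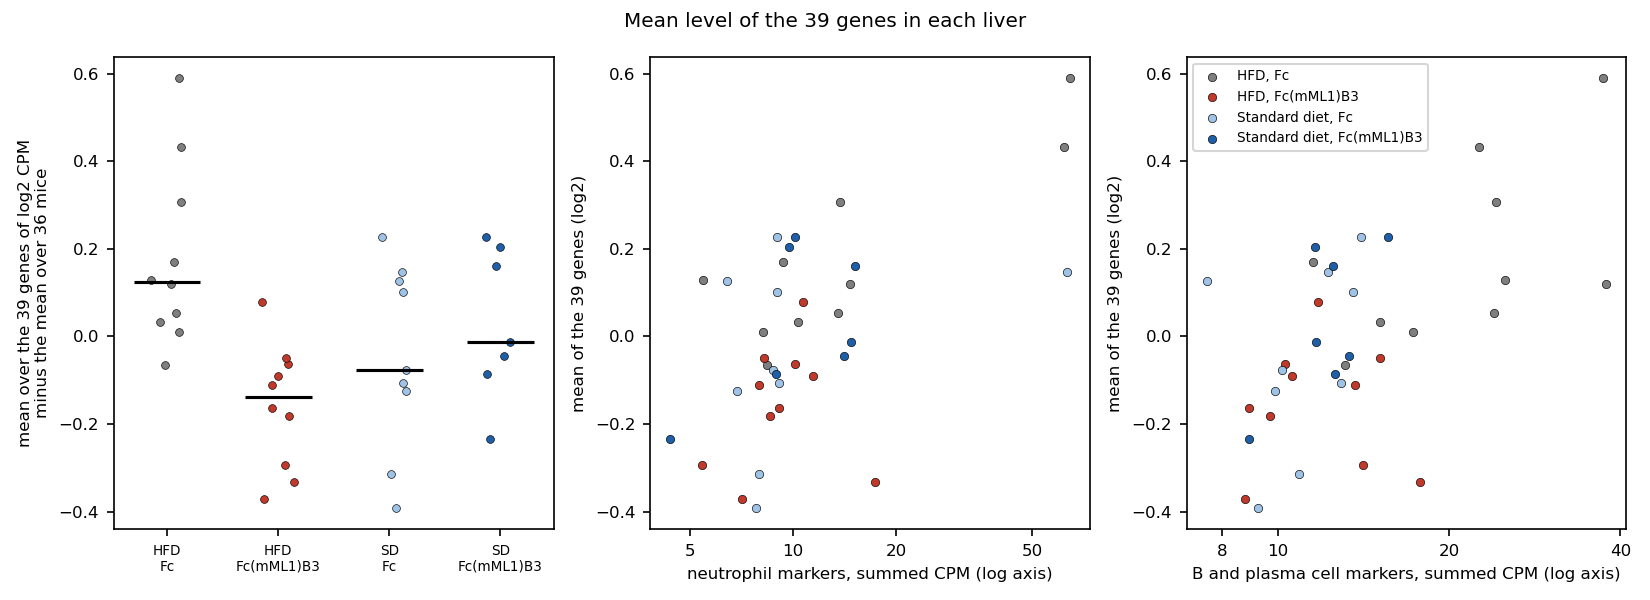
Mean over the 39 genes of log2 CPM minus the mean over 36 mice, by group with medians as bars (left), and against the summed CPM of neutrophil (middle) and B and plasma cell markers (right, log axes), 1 point per mouse. Fc mice 7 and 8 of the HFD experiment are the upper 2 points, at 0.59 and 0.43.

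The second comparison asked the same of the standard diet experiment. Here the genes were not lower as a list: 25 of 39 had a positive sign, the median log2 fold change was 0.08 against -0.01 over all genes tested, 4 were called higher and 0 lower. Of the 13570 genes tested, 8.56% were called higher and 7.55% lower, so the count of 4 is near the background. At an unadjusted p below 0.05, 7 members were higher and 0 lower, where 14.5% and 14.8% of all genes were, and DESeq2 and limma-voom also called 0 lower. No member had separate groups, as 1.76% (higher) and 1.14% (lower) of all genes did.

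The 4 called genes were Bst2, Igtp, Dtx3l and Irf7. Bst2 was 156 to 198 CPM (median 179) in 9 Fc mice and 189 to 228 CPM (median 219) in 7 Fc(mML1)B3 mice, of which 6 lay above all Fc mice. Its log2 fold change was 0.24 ± 0.05 (SE, adjusted p = 0.00332, edgeR; exact permutation p = 0.000524 over 11440 groupings). Igtp, a GTPase also known as Irgm3, was 23.1 to 43.5 CPM (median 28.3) with Fc and 28 to 55.9 CPM (median 44.6) with Fc(mML1)B3, and 4 of 7 treated mice lay above all Fc mice. The log2 fold change was 0.57 ± 0.14 (SE, adjusted p = 0.0107; exact permutation p = 0.00874).

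Dtx3l was 46.9 to 58.8 CPM (median 52.8) with Fc and 53.3 to 66.7 CPM (median 58.3) with Fc(mML1)B3, a log2 fold change of 0.17 ± 0.05 (SE, adjusted p = 0.0294; exact permutation p = 0.00455). Irf7 was 29.9 to 56.6 CPM (median 36.9) with Fc and 38.6 to 60.2 CPM (median 50.4) with Fc(mML1)B3, a log2 fold change of 0.37 ± 0.11 (SE, adjusted p = 0.0317). All 7 treated mice lay above the Fc median for both genes, and the groups overlapped. Leaving out Fc mouse 7, Fc mouse 9 or Fc(mML1)B3 mouse 7 each ended both calls and left 2. Irf7 also lost its call without Fc mouse 1, 3 or 8 or Fc(mML1)B3 mouse 1 or 4, and Dtx3l without Fc(mML1)B3 mouse 2 or 6. In a fit over all 36 libraries Igtp alone kept its call, and Bst2, Dtx3l and Irf7 did not. That fit called 459 of 14105 genes tested higher, against 1162 of 13570 in the main fit. The Fc libraries fell into 2 index series, and within the series that held both proteins 4 genes were again called, all 4 the same, and 35 of 39 signs were positive. In that fit 518 of 13735 genes tested were called higher. Its controls were Fc mice 6 to 9, among them mice 7 and 8, whose means over the 39 genes were the lowest of the Fc group.

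None of the genes called lower under the HFD was called lower here. Usp18 was 10.5 to 15.2 CPM (median 13.6) with Fc and 9.78 to 18.1 CPM (median 14) with Fc(mML1)B3, a log2 fold change of 0.09 with a 95% interval from -0.11 to 0.30. Rtp4 and Tap1 were at 0.11 and 0.08, with intervals from -0.10 to 0.31 and from -0.16 to 0.31. Of the 16 genes called lower under the HFD, 12 had a positive sign under the standard diet and 4 a negative one. B and plasma cell markers, summed, were 7.5 to 14 CPM with Fc and 8.89 to 15.7 CPM with Fc(mML1)B3, with 0 of 6 called in edgeR and 3 higher at an unadjusted p below 0.05. Arntl was lower with Fc(mML1)B3 here, at -1.05 ± 0.27 (log2, SE, adjusted p = 0.0108, edgeR), and Dbp was not called, at 0.14 ± 0.17 (adjusted p = 0.625). Stellate cell markers were called lower in 2 of 6, with sums of 173 to 258 CPM with Fc and 169 to 199 CPM with Fc(mML1)B3. The part of these genes was not tested.

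The third comparison set the effect in one experiment against that in the other, as an interaction term fitted to the 36 libraries. The difference, standard diet minus HFD, was called positive for 15 of 39 genes and negative for 0, against 4.66% and 4.4% of 14105 genes tested. At an unadjusted p below 0.05, 21 were positive and 0 negative, where 11.3% and 9.71% of all genes were, and DESeq2 and limma-voom also called 0 negative. The median difference was 0.44 over the 39 genes and 0.02 over all genes. The largest were Usp18 at 1.01 ± 0.15 (log2, SE, adjusted p = 1.62e-05) and Igtp at 0.99 ± 0.20 (adjusted p = 7.7e-04), and Rtp4 was at 0.63 ± 0.13 (adjusted p = 0.00119). The others were Ifit1, Psmb9, Zbp1, Xaf1, Ifit3, Tap1, Irgm2, Irf7, Gbp7, Parp14, Ifih1 and Ddx58, at 0.94 to 0.37. B and plasma cell markers differed in the same way, with 4 of 6 called positive, and their part was not tested.

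Since the difference can come from either control group, the groups were also set side by side across experiments, over libraries that the comparisons above use too. With Fc, 15 of 39 genes were called lower and 3 higher under the standard diet than under the HFD, where 24.6% and 23.3% of all genes tested were. Psmb9 was the lowest, at -1.01 ± 0.15 (log2, SE, adjusted p = 5.72e-07), and its groups were separate, at 11.2 to 19 CPM against 22.1 to 38.3 CPM, as 1.74% of all genes were in this direction and 7.87% in the other. Eif2ak2, Mx2 and Iigp1 were the 3 higher genes, at 0.44, 0.33 and 0.24, of which Eif2ak2 alone kept its call with upper-quartile normalization and had separate groups. Markers of T and NK cells were lower in 8 of 11 and of B and plasma cells in 5 of 6 in the same contrast, with sums of 7.66 to 12.3 CPM and 7.5 to 14 CPM against 8.35 to 30.1 CPM and 11.5 to 37.8 CPM. Dendritic and stellate cell markers were lower in 4 of 6 each, with sums of 24.4 to 38 CPM and 173 to 258 CPM against 29 to 78.6 CPM and 207 to 397 CPM, and the part of these lists was not tested. With Fc(mML1)B3, 14 were called higher and 2 lower, where 20.7% and 17.9% of all genes were. Dendritic and stellate cell markers were called lower in this contrast, 4 and 3 of 6, with sums of 20.1 to 33.1 CPM and 169 to 199 CPM under the standard diet against 29.3 to 63.9 CPM and 181 to 408 CPM under the HFD, and their part was not tested. Eif2ak2 was again higher, at 0.68 ± 0.07, and Eif2ak2, Parp14, Ifih1 and Ddx58 had separate groups, as 7.27% of all genes did in this direction and 2.5% in the other. The 2 lower genes were Oasl2 and Psmb8, at -0.46 and -0.36, and Psmb8 lost its call in 5 of 17 fits that left out 1 library.

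The 4 group medians of Usp18, from high to low, were 16.9 CPM for Fc under the HFD, 14 and 13.6 CPM for Fc(mML1)B3 and Fc under the standard diet, and 9.1 CPM for Fc(mML1)B3 under the HFD. The middle groups did not differ beyond their spread. For Igtp the order was 44.6 CPM for Fc(mML1)B3 under the standard diet, 35.4 CPM for Fc under the HFD, 28.3 CPM for Fc under the standard diet and 25.1 CPM for Fc(mML1)B3 under the HFD.

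The other genes of the pathway came from lists, beginning with the ligands. Of 10 interferon genes, 8 had 0 reads in all 36 libraries, Ifng had 75 reads in all and Ifnk 23, and none passed the filter on low counts. RNA of the ligands could thus not be tested in these counts, which leave out multiply aligned reads such as those that near-identical Ifna genes share. Of 6 receptor genes, Ifnar1 and Ifngr2 were called lower under the HFD, where 6.68% of all genes were, at -0.17 ± 0.06 and -0.44 ± 0.09 (log2, SE), and Ifngr2 was called lower under the standard diet too, where 7.55% were, at -0.24 ± 0.07.

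Between receptor and target, Tyk2, the kinase bound to the type I receptor, was called lower under the standard diet, at -0.23 ± 0.06. Of the 5 other IRF genes, Irf1, a factor induced by interferon gamma, was called lower under the HFD, at -0.33 ± 0.10. Of 12 sensing adaptors and kinases, the HFD calls were Ticam1 higher, at 0.35 ± 0.09, and Unc93b1 lower, at -0.25 ± 0.08, and the standard diet calls were Mavs higher, at 0.19 ± 0.05, and Ikbke lower, at -0.33 ± 0.10. Of 6 feedback inhibitors the single call was Ptpn6, lower under the standard diet at -0.23 ± 0.06. With 8.14% of all genes called higher and 6.68% lower under the HFD, and 8.56% and 7.55% under the standard diet, single calls in lists this short are near the background and say nothing about the lists.

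A further 32 type I response genes had 9 calls lower and 2 higher under the HFD, where 6.68% and 8.14% of all genes were called, with a median of -0.23. The strongest were Parp10 at -0.65 ± 0.08 (log2, SE, adjusted p = 8.25e-06) and Ddx60, a helicase that aids RIG-I, at -0.67 ± 0.13. Helz2 and Ifitm1 were the 2 higher genes, at 0.46 ± 0.09 and 0.47 ± 0.14. Under the standard diet 1 was called higher, Parp10 at 0.29 ± 0.07, and 1 lower, Cmpk2 at -0.46 ± 0.13, below the 8.56% and 7.55% of all genes. The interaction, which called 4.66% of all genes positive and 4.4% negative, called 6 positive, led by Parp10 at 0.96 ± 0.11 (adjusted p = 6.95e-08), and 1 negative, Helz2.

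Of 24 further interferon gamma response genes, 23 were tested and 6 were called lower under the HFD, against 6.68% of all genes, with a median of -0.30. Nlrc5, the activator of class I genes, was 19.8 to 28.4 CPM (median 23.6) with Fc and 15.6 to 18.7 CPM (median 17.2) with Fc(mML1)B3, and the groups did not overlap. Its log2 fold change was -0.46 ± 0.07 (SE, adjusted p = 0.000105). Tap2, the other subunit of the peptide transporter, was at -0.30 ± 0.08, and Tgtp1, Gbp9, Gbp10 and Cd274 were at -1.01 to -0.54. Tgtp1 and Gbp10 have near-identical copies. Under the standard diet H2-K1, a class I heavy chain, and Psmb10, another immunoproteasome subunit, were called higher, at 0.21 ± 0.05 and 0.30 ± 0.08, and this count of 2 in 23 is near the 8.56% of all genes. The interaction called 5 positive, against 4.66%: Nlrc5, Tap2, Tapbp, Psmb10 and Tgtp1.

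Within groups the 39 genes varied together. With each gene centred on its group means, the correlation of a gene with the mean of the other 38 over 36 mice had a median of 0.65 and ran from 0.24 for Ddx58 and 0.35 for Usp18 to 0.82 for Ifit1. Usp18 and Ddx58, which separated the HFD groups without overlap, were thus the genes that followed the shared variation between mice least, whereas Parp14, the other gene with separate groups, was at 0.79. Of 14066 other genes tested, 206 had a correlation above 0.5 with the mean of the members. Each of the 36 points is 1 library, so all its genes share that library's depth and cell makeup, which vary between mice.

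Genes outside the 39 with a closely similar pattern were Ifi47, Pyhin1, Cxcl9 and Gm12250. Ifi47, an immunity-related GTPase, had Pearson's r = 0.87 and Spearman's rho = 0.86 over 36 mice, and r = 0.85 without the 2 mice farthest from the median. Pyhin1, an interferon-inducible protein, had 0.80, 0.75 and 0.75, and Cxcl9, a T cell attractant, 0.78, 0.75 and 0.73. Gm12250, which lies before Igtp on the same chromosome (chr11:58183843-58190198), had 0.76, 0.75 and 0.74.

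The most variable genes differed from group to group. Their spans were taken on log2 CPM with a prior count of 1, so they are slightly below the ratios of the CPM values printed beside them. Gbp2 had the widest range in Fc mice under the HFD, from 7.28 CPM to 29.6 CPM in mouse 7, a 4.04-fold span. Ifi44, induced by type I interferon, spanned 2.81-fold in Fc(mML1)B3 mice under the HFD, from 2.93 to 8.32 CPM. Oas3 spanned 5.22-fold in Fc mice under the standard diet, from 1.37 to 7.34 CPM, and Psmb9 2.28-fold in Fc(mML1)B3 mice of that experiment, from 11.2 to 25.5 CPM. Permutation tests of these 4 genes under the HFD gave p = 0.117 for Gbp2, 0.0224 for Ifi44, 0.49 for Oas3 and 2.8e-04 for Psmb9. Under the standard diet the exact permutation tests gave p = 0.526, 0.88, 0.368 and 0.335 in the same order.

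Standard diet Fc mice 7 and 8 stood at the other end, the lowest of their 9 in 19 and 10 of the 39 genes, against 11.5% and 10.9% of all genes tested. Their means over the 39 genes were -0.39 and -0.31 on the log2 scale relative to all mice, and no other mouse of the group was below -0.13. Their summed neutrophil markers, 7.83 and 7.97 CPM, were within the range of the other mice. Mouse 8 had the lowest summed macrophage markers of the group, 166 CPM, where the other 8 mice were at 237 to 343 CPM, and its dendritic cell markers summed to 25.7 CPM, the second lowest of the group. Treated mice also stood low. Fc(mML1)B3 mouse 6 of the standard diet experiment was the lowest of its group in 20 of the 39 genes, against 13.8% of all genes. Under the HFD, Fc(mML1)B3 mouse 2 was lowest in 14, against 18.8%.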

How the data were processed

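The deposited values are counts per gene, 1 file per mouse. The authors trimmed reads with fastp, removed ribosomal RNA with Bowtie2 2.4.5, aligned to mm10 with STAR 2.7.10a and counted with featureCounts of Subread 2.0.3, each end of a pair as a read, both ends aligned, strand ignored and multiply aligned reads left out. Groups came from the sample labels. The members and lists were chosen with earlier results of these data known.

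Each experiment was tested on its own libraries by edgeR 4.0.16 in R 4.3.3 (quasi-likelihood fit, TMM factors, filterByExpr) with Benjamini-Hochberg adjustment over all genes tested, and called at an adjusted p below 0.05 with no fold limit. The interaction and the comparisons between experiments used all 36 libraries. Standard errors were taken as the size of the log2 change over √F, and an interval is 1.96 standard errors each way. Single genes were tested on mean log2 CPM (prior count 1) with 2-sided permutation tests, 100000 resamples under the HFD and exact under the standard diet. Mice are the replicates, and total counts per library, 14949035 to 28466853, set the counting error of low genes. No 2 libraries of a group were alike (chi-square per degree of freedom at least 6.3 over 147 pairs).

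Values per mouse are given for the 3 called members with the smallest p in each direction of the treatment comparisons and the interaction, and for the member with the widest range in each group. Those of other genes were chosen after their values were seen. Outside genes are the called genes of the lists and those among the 5 most correlated with the members, of which 1 is not reported here. The fits were tested on simulated data. Alternatives were DESeq2 1.42.0, limma-voom (limma 3.58.1), RLE and upper-quartile factors, other filters and thresholds, index series, a block on replicate number, and fits that leave out 1 library. Leaving out 2 Fc mice together was added after seeing the data.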

Additional observations from a re-analysis of the deposited data

Results flagged for a closer look

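Among 40 groups of per-mouse values (10 genes in 4 groups), 3 held a mouse apart from the rest of its group, and chance gives about 1 in 20. These were Fc(mML1)B3 mouse 1 of the HFD experiment for Usp18, at 13 CPM, Fc mouse 1 of the standard diet experiment for Igtp, at 43.5 CPM, and Fc(mML1)B3 mouse 3 of that experiment for Oas3, at 4.73 CPM.

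For 15 genes the interaction test found unequal effects in the 2 experiments. The effect under the standard diet minus that under the HFD, on the log2 scale, was 0.37 for Ddx58, 0.44 for Ifih1, 0.83 for Zbp1, 0.66 for Irf7 and 1.01 for Usp18. It was 0.94 for Ifit1, 0.69 for Ifit3, 0.63 for Rtp4, 0.74 for Xaf1 and 0.44 for Parp14. It was 0.63 for Gbp7, 0.99 for Igtp, 0.66 for Irgm2, 0.91 for Psmb9 and 0.68 for Tap1. Diet, experiment, dosing and index series cannot be told apart in this difference.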

How the results depend on the processing

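No call among the named genes changed direction under any alternative run. Under the HFD, members called lower numbered 16, and 12 to 18 with each library left out. Over all genes tested, 644 to 1446 were then called lower. The most were without Fc(mML1)B3 mouse 5, a fit in which all 16 members kept their calls. The calls lost with a library left out were those of Oasl2 (in 14 of 20 fits), Igtp (9), Irgm2 (9) and Zbp1 (5). The members called lower numbered 5 with the 4 Fc(mML1)B3 mice of the smaller index series, 10 without Fc mice 7 and 8, and 15 to 21 with RLE or upper-quartile factors, DESeq2, limma-voom, other filters or all 36 libraries. All genes called lower were 292 of 13824 and 841 of 13474 in the first 2 fits, and 889 of 13299 in the main fit. Limma-voom called 1 higher, Stat2. Under the standard diet, members called higher numbered 4, and 2 to 4 with each library left out, but 1, Igtp, in the fit over all 36 libraries. There 459 of 14105 genes tested were called higher, against 1162 of 13570 in the main fit. The interaction called 15, and 14 to 15 with each library left out (14, without Zbp1, when Fc(mML1)B3 mouse 2 or 4 of the standard diet experiment was). Without HFD Fc mice 7 and 8 it called 13, losing Zbp1 and Irf7, and between the Fc groups 11 members were lower and 4 higher, with Oas1a, Ifit1, Trim30a, Gbp3 and Iigp1 lost and Rsad2 and Parp14 gained. Of the 14071 genes tested without these mice, the interaction called 676 positive, and the Fc contrast 2891 lower and 3267 higher.

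At the study's HFD thresholds (adjusted p below 0.1, fold above 2) the counts were 0 under the HFD, 0 under the standard diet, 1 for the interaction, 1 lower and 0 higher between the Fc groups, and 0 and 0 between the Fc(mML1)B3 groups. For the standard diet the study's figure legend gives 0.05 and fold above 1.5, while its text gives 0.1 and 2 for the same calls. At the limits of that legend the counts were, in the same order, 5, 0, 12, 8 and 0, and 0 lower and 3 higher. How many of all genes pass these limits was not counted. Between the Fc groups, with each library left out, 14 to 17 members were lower and 1 to 3 higher (Mx2 and Iigp1 both lost without HFD mouse 4, 7 or 10 or standard diet mouse 1, 3, 4, 5, 8 or 9, and Ifit1 without HFD or standard diet mouse 7), and upper-quartile factors gave 21 lower and 1 higher. Between the Fc(mML1)B3 groups these ranges were 1 to 2 lower (1 without HFD mice 1 or 3 or standard diet mice 1, 3 or 6, which ended the call of Psmb8) and 13 to 15 higher, and upper-quartile factors gave 11 higher, without Bst2, Parp9 and Gbp7. Upper-quartile factors moved the median of all genes to -0.13 (Fc) and -0.11 (Fc(mML1)B3) between experiments, and under the HFD the genes called higher and lower from 1083 and 889 to 865 and 1075.

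With the replicate number as a block, the members called were 12 lower under the HFD, 1 higher under the standard diet (Bst2) and 7 for the interaction. Between the Fc groups, fitted alone, 1 was higher with the block and 2 without it, where 3050 and 3222 of 13506 genes tested were. Equal numbers showed no pairing: deviations of same-numbered mice correlated over 0.1 in 1 of 10 pairs under the HFD and 0 of 7 under the standard diet. Depth limits the least abundant genes, such as Mx1 with a median of 43 reads per library.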

Other observations

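Fc mouse 5 of the standard diet experiment had summed neutrophil markers of 63.3 CPM, close to the 64.5 and 61.8 CPM of Fc mice 7 and 8 of the HFD experiment, while the other 33 mice were at 4.38 to 17.4 CPM. Its mean over the 39 genes was 0.15 on the log2 scale relative to all mice, within the range of its group of 9, where 1 mouse was higher.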
